A study of Arabidopsis thaliana with 88 samples.

Results

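The 9 late genes of anthocyanin synthesis were followed across every group of the series. They are 3 genes that build the pigment and carry it to the vacuole, DFR (AT5G42800), LDOX (AT4G22880) and TT19 (AT5G17220), 3 genes that decorate it, UGT75C1 (AT4G14090), UGT79B1 (AT5G54060) and 5MAT (AT3G29590), and 3 transcription factors of the pathway, PAP1 (AT1G56650), PAP2 (AT1G66390) and TT8 (AT4G09820). The list was chosen on the difference between tetraploid and diploid Col-0 shoots, in which DFR stood out, and was completed from the known pathway. Whether other libraries played a part in the choice is not known, and Col-0 shoot values are therefore given as a description, without a test. Of the 9 members among 33681 genes of the table, 8 had values, 5MAT was not analysed here, and 6 of 20347 genes passed the filter of at least 2 CPM (counts scaled to the library total) in at least 6 libraries and were tested. PAP2 and TT8 did not pass it.

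Gene expression had been measured by 3′ mRNA sequencing in Arabidopsis thaliana plants with 2 (2x) or 4 (4x) sets of chromosomes. Besides wild type Col-0 there were 4 mutants: sos3-2, which lacks a calcium sensor of the salt response, esb1-1, which has a disordered Casparian strip, the double mutant rhd6-3/rsl1-1, which forms no root hairs, and a cation transporter mutant that the labels call chx25-3 and the study chx23-4. Roots of plants kept 2 weeks on half-strength MS plates with sucrose, and roots and shoots of plants kept 5 weeks on peat soil in short days, were sampled, all under control conditions. A plate library pooled plants and a soil library came from a single plant. The 4x Col-0 came from an earlier study, whereas each 4x mutant was 1 line made with colchicine, so that ploidy and line cannot be told apart within a mutant. Of 88 libraries, 86 fell into 30 groups, 26 of 3 libraries and 4 of 2, and 2 whose title and genotype label disagreed were left out of every group.

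Anthocyanins are the red to purple vacuolar pigments that many Arabidopsis leaves form in strong light, in the cold or when nutrients are short. Dihydroflavonols from the early part of the flavonoid pathway are reduced by dihydroflavonol 4-reductase (DFR), and leucoanthocyanidin dioxygenase (LDOX) turns the product into coloured anthocyanidins. Sugars and acyl groups are then added, and the glutathione S-transferase TT19 is needed to bring the pigment to the vacuole. DFR and the steps after it are known to be switched on by a complex of an R2R3-type MYB factor such as PAP1 or PAP2, a bHLH factor such as TT8 and the WD40 protein TTG1, while the early steps also serve flavonols and answer to other MYB factors.

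The 250 bases before the annotated start of the 5 tested enzyme and transport genes are shown because the results turn on these genes. They were read 5′ to 3′ on the coding strand from RefSeq TAIR10.1. Capitals mark 2 kinds of motif, on either strand, known as sites of bHLH and MYB factors: the E-box CANNTG, of which the G-box CACGTG is a special case, and the AC element ACCNANC.
DFR, chr5:17166033-17166282, minus strand: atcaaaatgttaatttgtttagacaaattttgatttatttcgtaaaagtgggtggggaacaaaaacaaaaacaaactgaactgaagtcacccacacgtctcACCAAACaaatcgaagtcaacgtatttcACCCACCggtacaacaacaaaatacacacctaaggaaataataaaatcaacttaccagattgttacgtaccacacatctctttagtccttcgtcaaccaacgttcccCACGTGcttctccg
LDOX, chr4:12006210-12006459, minus strand: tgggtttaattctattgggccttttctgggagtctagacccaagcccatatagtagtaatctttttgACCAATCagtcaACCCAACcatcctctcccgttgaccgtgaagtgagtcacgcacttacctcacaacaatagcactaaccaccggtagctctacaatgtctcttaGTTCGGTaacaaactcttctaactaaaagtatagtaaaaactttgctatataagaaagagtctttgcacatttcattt
TT19, chr5:5658166-5658415, plus strand: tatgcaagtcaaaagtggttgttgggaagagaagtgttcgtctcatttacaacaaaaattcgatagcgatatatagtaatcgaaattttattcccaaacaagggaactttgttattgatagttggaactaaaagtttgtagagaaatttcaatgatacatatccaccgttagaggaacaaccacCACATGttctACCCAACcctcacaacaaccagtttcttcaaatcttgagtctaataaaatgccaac
UGT75C1, chr4:8123836-8124085, minus strand: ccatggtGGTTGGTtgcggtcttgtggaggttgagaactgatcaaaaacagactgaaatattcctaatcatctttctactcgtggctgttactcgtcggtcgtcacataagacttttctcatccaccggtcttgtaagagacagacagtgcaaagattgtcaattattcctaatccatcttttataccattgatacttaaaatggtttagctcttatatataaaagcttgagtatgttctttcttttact
UGT79B1, chr5:21938397-21938646, minus strand: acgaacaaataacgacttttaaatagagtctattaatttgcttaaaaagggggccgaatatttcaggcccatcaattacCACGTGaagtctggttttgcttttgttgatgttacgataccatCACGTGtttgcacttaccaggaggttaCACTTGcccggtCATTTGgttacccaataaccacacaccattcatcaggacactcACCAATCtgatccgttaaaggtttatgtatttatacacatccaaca
An AC element lay in this window in 9 of the 9 members, beside 27.76% of 27443 promoters of the same length. An E-box lay in 6 of the 9 members, beside 55.32% of promoters, and a G-box in DFR, UGT79B1 and PAP2, beside 6.486%. The G-box of DFR began 14 bases before the annotated start, and those of UGT79B1 began 171 and 128 bases before it. These are matches of letters in one window and not shown to be sites. UGT75C1 and UGT79B1 each have 1 exon in this annotation, LDOX, TT19 and PAP1 have 3, DFR has 6 and TT8 has 7. The transcript set behind the deposited values was not stated, and of 15896 transcripts that had a RefSeq model 54.18% had the same length as in the files, so positions belong to the RefSeq build alone.

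Assigned counts per library ranged from 4698905 to 8635528 in soil shoots, while soil roots had 5850001 to 10435927 and plate roots 3292994 to 10246410. The 4 leaf markers RBCS1A, LHCB2.1, CAB3 and RCA summed to 32849 to 57615 CPM in shoots and to at most 90.01 CPM in roots, and 4 root markers summed to at most 89.2 CPM in shoots and to at least 4449 CPM in roots. The 4 flower markers summed to at most 1.45 CPM in shoots. In plate roots they summed to 3.48 to 11.31 CPM, with PI alone at 3.11 to 10.89 CPM. On the leaf and root markers the libraries matched their labelled organs. Averaged over the mutant shoots, none of the leaf or root markers was called between 4x and 2x by edgeR, DESeq2 or limma-voom, with 2 of 4 and 1 of 4 at an unadjusted p under 0.05, and all 4 leaf markers lay below 0 (median log2 difference -0.31). In rhd6-3/rsl1-1 the 4 leaf markers had differences from -0.91 to -0.11 (median -0.54), 2 with an unadjusted p under 0.05, and DESeq2 called 1 of them, RBCS1A, lower in 4x (-0.51, DESeq2 adjusted p = 0.0167). Their part in the results for the late genes was not tested. Between 4x and 2x mutants, a smaller share of cells making a transcript and less of it per cell cannot be told apart in such whole-organ RNA.

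Levels below are CPM scaled by TMM (trimmed mean of M values), which allow 1 gene to be compared between libraries but not 1 gene with another. In soil shoots DFR was read at up to 186 CPM in 2x mutants and never above 2.71 CPM in 4x mutants. In sos3-2, DFR stood at 1.09, 4.16 and 17.5 CPM in the 2x plants and at 0, 0.25 and 0.54 CPM in the 4x plants. In esb1-1 it stood at 0, 2.30 and 12.5 CPM against 0, 0.65 and 0.93 CPM. In rhd6-3/rsl1-1 the 2x plants had 0, 16.4 and 186 CPM and the 4x plants 0, 0 and 2.65 CPM. In chx25-3 the 3 2x plants had 0, 35.4 and 115 CPM and the 2 4x plants 0.34 and 2.71 CPM. Each 2x group thus ran from a plant at or near 0 to a plant well above every 4x plant of its genotype, and the 2 ploidies overlapped in esb1-1, rhd6-3/rsl1-1 and chx25-3 through the lowest 2x plant, but not in sos3-2.

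LDOX, the next enzyme, followed the same order of plants within each 2x mutant group, but not in every 4x group. Its highest 2x plants had 15.4 CPM in sos3-2, 10.94 CPM in esb1-1, 108 CPM in rhd6-3/rsl1-1 and 77.5 CPM in chx25-3, while the highest 4x plants of these genotypes had 0.81, 0.31, 1.06 and 1.97 CPM. The lowest 2x plants, at 0.87, 0, 0.57 and 0.29 CPM, again lay within or below the 4x range of their genotype, and in sos3-2 just above it.

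TT19, the glutathione S-transferase, was measurable in every 2x shoot. It lay between 7.63 and 28.7 CPM in 2x sos3-2, between 9.84 and 26.6 CPM in esb1-1, between 7.18 and 104.6 CPM in rhd6-3/rsl1-1 and between 8.68 and 71.7 CPM in chx25-3. In 4x plants it lay at or below 2.75 CPM in esb1-1, 4.24 CPM in rhd6-3/rsl1-1 and 5.17 CPM in chx25-3, with no overlap. The 4x sos3-2 plants stood at 0, 0.27 and 13.6 CPM, and the last of them overlapped the 2x range.

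UGT75C1, which puts glucose on the anthocyanin, had its lowest values in 4x sos3-2 (0.20 to 1.08 CPM) and 4x rhd6-3/rsl1-1 (0.24 to 1.06 CPM), against 4.14 to 9.87 CPM and 8.62 to 60.6 CPM in the 2x plants. In esb1-1 the ploidies overlapped widely, at 2.29 to 9.07 CPM in 2x and 0.98 to 7.34 CPM in 4x. UGT79B1, which adds xylose, had no count in any of the 3 4x sos3-2 plants, against 0.44, 5.51 and 6.37 CPM in 2x. Summed over the group and against a floor of 3 counts, this was at least 17.04-fold lower in 4x. In rhd6-3/rsl1-1 it ran from 2.58 to 50.1 CPM in 2x and from 0 to 1.59 CPM in 4x, and in esb1-1 the ploidies did not overlap either. In chx25-3 they overlapped, with 0 counts in 2x replicate 1 and 10 and 9 counts in the 4x plants. UGT75C1 also overlapped in chx25-3.

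Of the transcription factors, PAP1 was the only one with many counts. In sos3-2 the 2x plants had 22.2, 38.2 and 52.4 CPM and the 4x plants 9.61, 19.6 and 20.5 CPM. In esb1-1 they had 31.1, 39.7 and 45.6 CPM against 5.61, 7.57 and 9.11 CPM. The rhd6-3/rsl1-1 plants had 41.6, 90.2 and 126.7 CPM in 2x and 7.46, 11.6 and 18.8 CPM in 4x. In chx25-3 the values were 39.4, 41.1 and 94.2 CPM against 14.1 and 26.3 CPM. PAP1 was the member whose ploidies did not overlap in any genotype, and unlike DFR it was well above 0 in every 2x plant. PAP2, its close paralog, was found in 4 of 29 grouped shoots with at most 7 counts, and TT8 with at most 5 counts. Reads shared among PAP1, PAP2 and their neighbouring paralogs could have been split by the quantification, so the PAP1 level is uncertain to that degree.

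**Figure D1:**
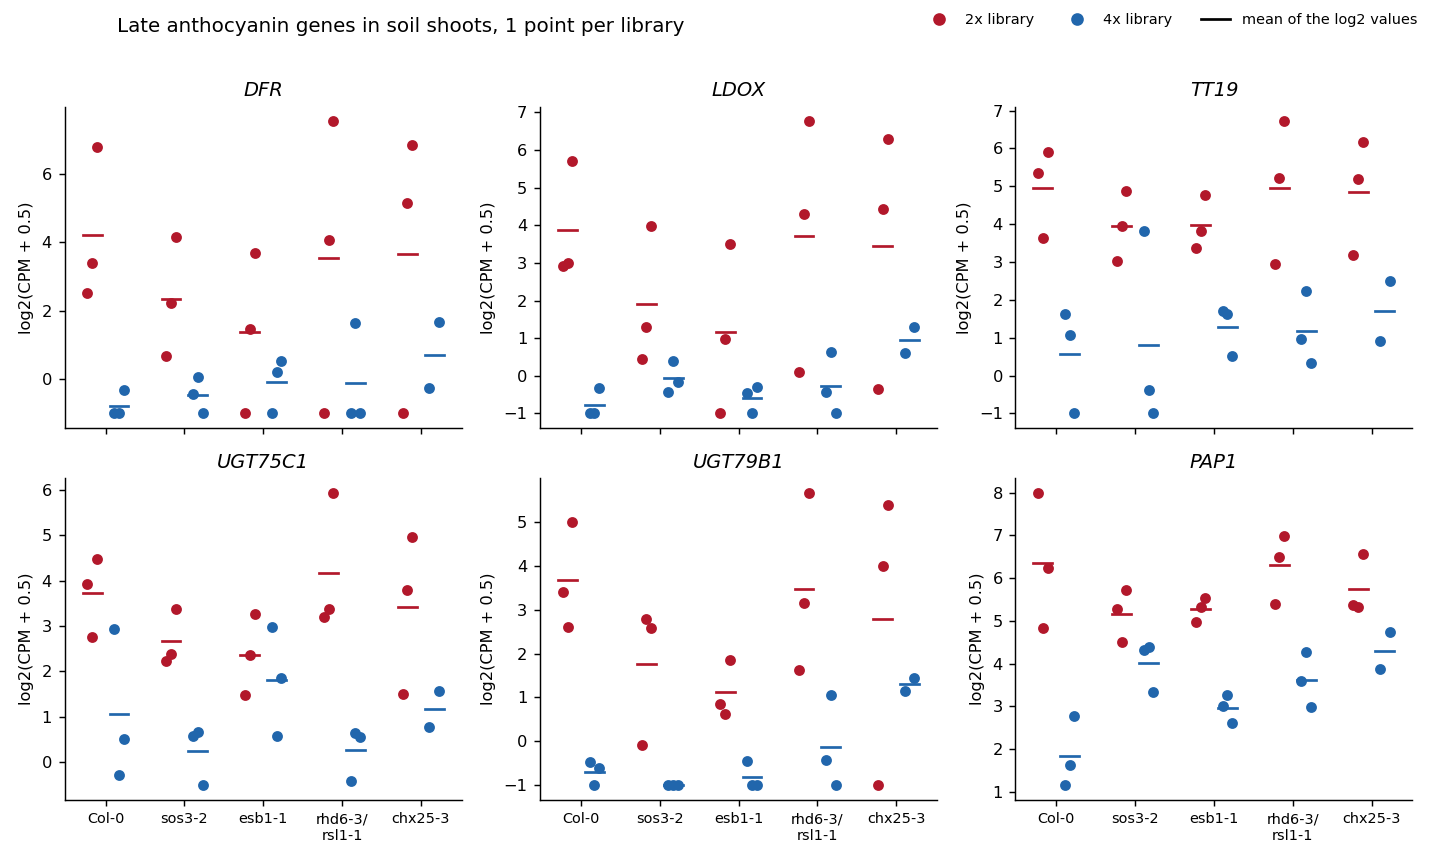
Level of the 6 tested members in each soil shoot library, with 1 point per library, genotypes along the horizontal axis, 2x and 4x in separate colours and log2(CPM + 0.5) on the vertical axis. DFR in 2x plants spreads from 0 to 186 CPM while 4x plants stay at or below 2.71 CPM, and PAP1 separates the ploidies in every genotype.

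The question of whether chromosome number went with these levels outside the wild type was tested in the mutants with edgeR's quasi-likelihood test, fitted to all genes of the soil shoot libraries, with Benjamini-Hochberg adjustment over 20347 genes. Calls needed a log2 fold change of at least 0.5 in size besides an adjusted p under 0.05. Averaged over the 4 mutants, 6 of 6 members were called lower in 4x, where 1.85% of all genes were. DFR fell by 4.89 on the log2 scale (SE 0.936, edgeR adjusted p = 0.00185), LDOX fell by 4.75 (SE 0.812, edgeR adjusted p = 0.000614) and TT19 fell by 3.26 (SE 0.605, edgeR adjusted p = 0.00228). UGT75C1 fell by 2.92 (SE 0.524, edgeR adjusted p = 0.00181) and PAP1 fell by 1.97 (SE 0.318, edgeR adjusted p = 0.000794). UGT79B1 was called as well (edgeR adjusted p = 0.00147), and its fitted size rests on a group without counts and is not given. The median of all genes was -0.03. DFR, LDOX, UGT75C1 and UGT79B1 had passed the filter mainly through 2x plants. The count of members called therefore adds nothing to the single tests. In 2x and 4x shoots, 2 CPM was reached by 11 and 2 libraries for DFR and 9 and 0 for LDOX. It was reached by 15 and 4 for UGT75C1 and 11 and 1 for UGT79B1. TT19 reached it in 15 and 6 libraries and PAP1 in 15 and 13. Without the filter 6 of the 8 members with values were called.

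Without replicate 1 all 6 members were still called for the mean effect, and without replicate 2 or without replicate 3 the calls were lost. The 4x chx25-3 shoots had only replicates 2 and 3, so that leaving out either left that group with 1 library. These fits are therefore unlike, and the loss of calls was not traced to particular plants. Without replicate 2 the log2 differences of LDOX (-5.41), TT19 (-3.32), UGT75C1 (-3.03) and PAP1 (-2.17) were as large as with all plants, and that of DFR (-6.47) rests in part on 4x rhd6-3/rsl1-1, which was then left without counts. Without replicate 3 they were smaller, at -3.25 for DFR, -2.75 for LDOX, -2.43 for TT19, -2.06 for UGT75C1 and -1.58 for PAP1. Without replicate 2 no gene of the 20347 was called, and without replicate 3 there were 344 in place of 1200. With limma-voom, DFR and LDOX were not called, with smaller differences of -2.73 and -2.58 (adjusted p 0.0958 and 0.0614), and the other 4 were, at -3.39 for TT19, -2.12 for UGT75C1, -2.22 for UGT79B1 and -1.89 for PAP1. With the replicate number as a block all 6 were called, beside 2045 genes in all.

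Within single mutants, 6 of 6 members were called lower in 4x rhd6-3/rsl1-1, beside 1.03% of all genes, with edgeR adjusted p from 0.0149 to 0.0425. In this mutant ploidy ran partly with the library number, which is explained below. Each 4x shoot had a higher number than the 2x shoot of the same replicate, and all 4x shoots lay above 2x replicates 1 and 2. For every gene, this contrast alone therefore does not separate ploidy from that number. The log2 differences were -6.35 for DFR, -6.66 for LDOX, -4.56 for TT19, -5.06 for UGT75C1, -5.12 for UGT79B1 and -2.78 for PAP1. Leaving out 1 of the 6 libraries left between 0 and 5 of these calls, 0 without 4x replicate 1 and 1 without 4x replicate 2 or 3 or without 2x replicate 2 or 3, and limma-voom called 2. Without 2x replicate 3, the plant with the highest level, the log2 differences were -3.34 for DFR, -4.58 for LDOX, -3.39 for TT19, -3.56 for UGT75C1, -3.26 for UGT79B1 and -2.39 for PAP1. Without 4x replicate 2 no 4x count of DFR was left, and the difference of LDOX was -8.26, from 1 count in 4x. In sos3-2, esb1-1 and chx25-3 no member was called by edgeR, where 0.00491%, 0% and 0% of all genes were. In each of these mutants the 6 estimates lay below 0. At an unadjusted p under 0.05 there were 4 of 6 members in sos3-2, 3 in esb1-1 and 6 in chx25-3, and DESeq2 called 1 member in esb1-1 and 0 in the others, and limma-voom called 0 in all 3.

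Sums of counts over the libraries of a group give the size without a model. DFR was 35.3-fold lower in 4x sos3-2 (95% interval 11.8 to 174, from 3 counts in 4x), 9.83-fold lower in esb1-1 (3.95 to 31.6), 80.4-fold lower in rhd6-3/rsl1-1 (43.4 to 168) and 39.6-fold lower in chx25-3 (22.9 to 74.8). These intervals cover counting error alone and not the spread between plants. The highest 2x plant, replicate 3 in each mutant, carried most of each sum, with 582 of 647 counts in rhd6-3/rsl1-1, and without it DFR was 10.4-, 2.99-, 11.5- and 13.5-fold lower in the same order. PAP1 was 2.48-, 5.26-, 7.07- and 3.10-fold lower in the same order. UGT75C1 in esb1-1 stood apart from these, with a ratio of 1.24 (0.827 to 1.88) and a fitted log2 difference of -0.42 (SE 0.916) that turned to 0.16 without 2x replicate 3 and to 0.006 without 4x replicate 2.

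**Figure D2:**
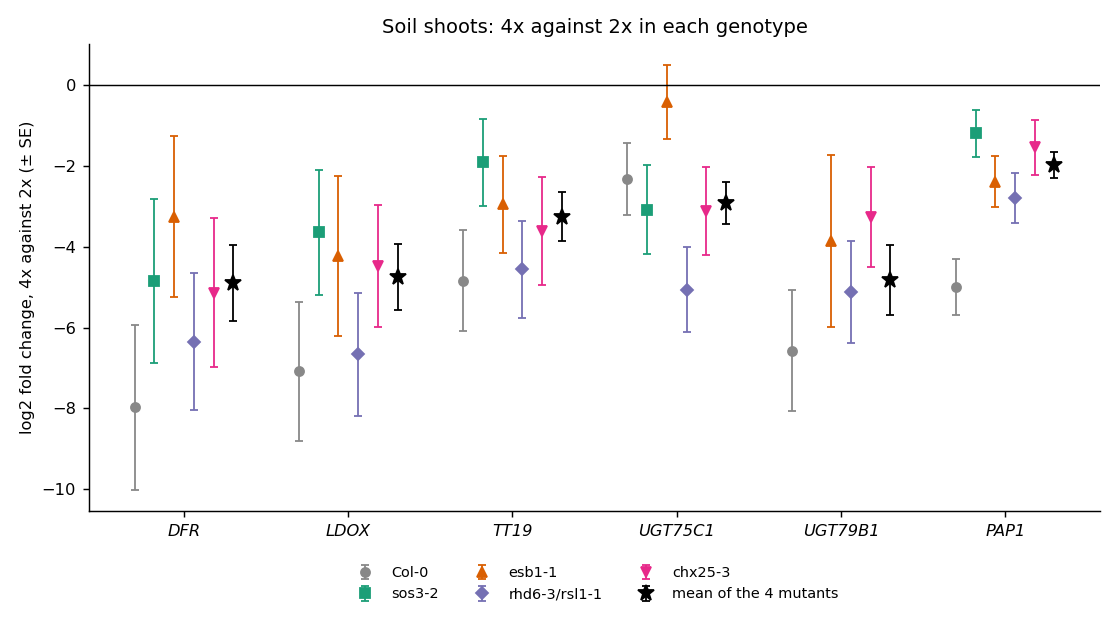
Fitted 4x minus 2x difference (log2) of the 6 tested members in soil shoots for each genotype and for the mean over the 4 mutants, with bars of 1 SE. Col-0 is drawn as a description without a test. The point of UGT79B1 in sos3-2, which had no count in 4x, is left out. The drawn mean of UGT79B1 rests in part on that group. The mean effects of DFR and PAP1 are falls of 4.89 and 1.97, and the point for UGT75C1 in esb1-1, at -0.42, lies nearest to 0.

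A difference of the ploidy effect among the 4 mutants was tested directly and was called by edgeR for no member and for 0% of all genes, with every member's adjusted p at 1. At an unadjusted p under 0.05 there was 1 of 6 members, UGT75C1, and DESeq2 and limma-voom called 0. The mutants compared with each other at 2x gave no call among the members (0.0295% of all genes), although 4 of 6 had an unadjusted p under 0.05, and none at 4x (0.0885%), where no member did. DESeq2 and limma-voom also called 0 of the members at either ploidy.

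In Col-0, the shoots that led to the choice of the members, DFR stood at 5.22, 9.96 and 110 CPM in 2x and at 0, 0 and 0.31 CPM in 4x. LDOX stood at 7.06, 7.47 and 52.1 CPM against 0, 0 and 0.31 CPM, and PAP1 at 28.02, 74.7 and 254 CPM against 1.73, 2.58 and 6.29 CPM. Of the 6 members, 5 had no overlap between the ploidies, the exception being UGT75C1, at 6.23, 14.7 and 21.7 CPM in 2x and 0.32, 0.92 and 7.14 CPM in 4x. In this contrast 0.226% of all genes were called lower, which is given for completeness only. Of all genes, 7.01% were likewise without overlap and lower in 4x Col-0. The members without overlap, all lower in 4x, numbered 5 in sos3-2, where 5.64% of all genes were so, and 3 in esb1-1, where 6.5% were. In rhd6-3/rsl1-1 there were 4 such members beside 11.3% of all genes, and chx25-3 had 2 beside 8.76%.

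The spread among 2x plants of 1 genotype was ordered by a label of the libraries. Each deposited file's name opens with a number, here called the library number, which ran from 35 to 130 over the mutant shoots, and whose meaning is not given in the sources used here. The 5 2x mutant shoots numbered 37 to 53 had DFR between 0 and 2.30 CPM, and the 3 numbered 90 or above had 17.5, 115 and 186 CPM. The 6 4x mutant shoots numbered 84 to 130 had DFR between 0 and 2.71 CPM, as low as the 2 numbered 35 and 45, at 0 and 0.25 CPM. Among the lowest numbers the ploidies therefore did not stand apart in DFR, and among the highest they did. LDOX, TT19, UGT75C1 and UGT79B1 likewise overlapped among the lowest numbers. PAP1 stood apart there, at 31.1 to 41.6 CPM in 2x against 7.57 and 19.6 CPM in 4x.

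Slopes on this number were added after the values had been seen. In a fit with a mean per group and 1 slope per ploidy, 6 of 6 members rose with the number in 2x mutants, beside 7.48% of all genes that did. This count adds nothing to the single slopes, since the members varied together, as given below. DFR, LDOX, UGT75C1 and UGT79B1 had also passed the filter mainly through 2x shoots. Per 10 numbers, DFR rose by 1.14 on the log2 scale (SE 0.117, edgeR adjusted p = 2.35e-07), LDOX by 1.05, TT19 by 0.50, UGT75C1 by 0.46, UGT79B1 by 0.70 and PAP1 by 0.19 (SE 0.0533, edgeR adjusted p = 0.018). In 4x mutants none of the 6 was called by edgeR, beside 7% of all genes called in either direction. DFR, LDOX and UGT79B1 had medians of 0.34, 0.31 and 0 CPM in these 4x shoots. Their highest counts in a library were 11, 8 and 10, so that a slope was hardly detectable in them. There DFR had a slope of 0.28 (SE 0.308) and TT19 one of -0.52 (SE 0.176, edgeR adjusted p = 0.0804), DESeq2 called 1 member and limma-voom 0, and at an unadjusted p under 0.05 there was 1, TT19.

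The 4x slope minus the 2x slope lay below 0 for all 6 members, from -1.03 for TT19 (SE 0.194, edgeR adjusted p = 0.531) to -0.27 for PAP1. All 6 had an unadjusted p under 0.05, but edgeR called none of them and 0% of all genes, DESeq2 called 1 member and limma-voom called 1. A difference in slope between the ploidies was thus not established after adjustment.

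Across the 12 2x mutant shoots, log2(CPM + 0.5) of DFR correlated with the library number at Pearson r = 0.963 and Spearman rho = 0.951. The permutation p was 1e-05 for each, the smallest that 100000 permutations can give (adjusted p = 8e-05 and 0.00012 over 12 tests). These permutations ran over all 12 shoots and not within genotypes, so they do not allow for the groups. The value of r was 0.934 without the 2 libraries farthest from the median number. PAP1 had r = 0.717 and rho = 0.65 (permutation p = 0.00832 and 0.0256, adjusted p = 0.0166 and 0.0512), and its r fell to 0.414 without those 2 libraries. Over the 11 4x mutant shoots DFR had r = 0.213 and rho = 0.186 (permutation p = 0.526 and 0.582, adjusted p = 0.701 and 0.669). In these shoots DFR had at most 11 counts a library.

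The library number and the replicate number of the labels ran together. With replicate number as a block, none of the 6 slopes in 2x mutants was called, although all 6 stayed above 0, at 1.00 for DFR, 0.76 for LDOX, 0.51 for TT19, 0.41 for UGT75C1, 0.49 for UGT79B1 and 0.31 for PAP1 (edgeR adjusted p from 0.596 to 0.893). Without replicate 3 only 2 were called. With library number in the fit as a covariate, the mean 4x against 2x effect remained called for 6 of 6 members, at -5.86 for DFR and -2.02 for PAP1. That fit had a common slope for both ploidies and used all grouped soil shoots, Col-0 included. It therefore does not adjust for a slope that differs between the ploidies. Sequencing depth and the share of reads from organelle genes (9.45 to 17.02% in 2x and 8.02 to 17.1% in 4x mutant shoots) covered nearly the same ranges in both ploidies. Along the number, the organelle share was 10.31 to 17.02% in the 2x mutant shoots numbered 37 to 53. It was 9.45 to 11.62% in those numbered 90 or above. The part of depth and organelle share in the results was not tested.

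**Figure D3:**
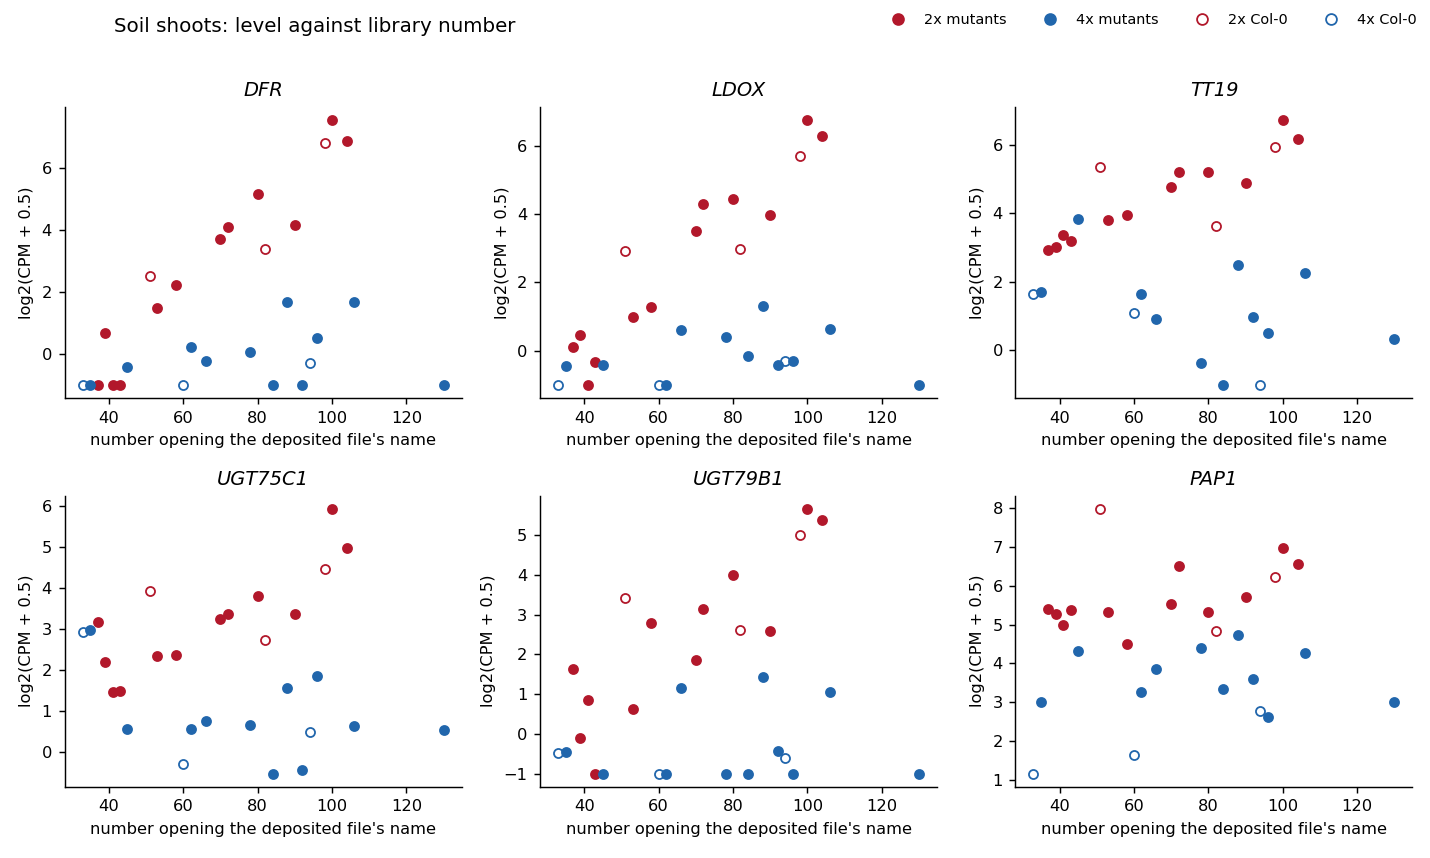
Level of each tested member in soil shoots (log2(CPM + 0.5)) against the number that opens the deposited file's name, with filled points for mutants, open points for Col-0 and colours for ploidy. DFR rises along the number in 2x mutants (r = 0.963, 12 libraries), and its r in 4x mutants is 0.213 (11 libraries).

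Other genes of the flavonoid pathway were taken from lists made with earlier results known. Of the 8 early pathway genes from PAL1 to F3'H, which make the precursors, 0 were called between 4x and 2x over the mutants by edgeR, although all 8 estimates lay below 0, from -1.93 for 4CL3 to -0.71 for C4H, with a list median of -1.08 against -0.03 for all genes. At an unadjusted p under 0.05 there were 5 of the 8, DESeq2 called 3 (4CL3, CHS and CHIL) and limma-voom 0. CHS, the first committed enzyme, had a difference of -1.07 (SE 0.362, edgeR adjusted p = 0.0741) and F3H one of -1.82 (SE 0.709, edgeR adjusted p = 0.128). In rhd6-3/rsl1-1 alone, CHS was called lower (-2.71, SE 0.734, edgeR adjusted p = 0.047). Of 4 tested genes of the flavonol branch, which draws on the same precursors, none was called by edgeR, DESeq2 or limma-voom, with estimates from -2.38 to -0.89 and 3 of the 4 at an unadjusted p under 0.05. Most genes of both lists fell along the library number in both ploidies, as given below, and the 4x mutant shoots ran to higher numbers than the 2x ones. No ploidy difference adjusted for that number is given for these genes, so its part in their estimates was not tested.

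Along the library number most early genes ran opposite to DFR in 2x mutants, while in 4x mutants DFR had no called slope. In 2x mutants 6 of 8 early genes and 4 of 4 flavonol genes were called falling, beside 1817 of all 20347 genes. In 4x mutants 6 of 8 and 3 of 4 were, beside 776 of all genes. The median slope of the 8 early genes was -0.43 per 10 numbers in 2x and -0.45 in 4x mutants. These slopes are given without the replicate block. F3H, which makes the dihydroflavonols that DFR reduces, fell by 0.58 per 10 numbers in 2x (SE 0.119, edgeR adjusted p = 0.00198) and by 0.80 in 4x (SE 0.161, edgeR adjusted p = 0.00406), and MYB111, a flavonol regulator, fell by 1.05 and 0.88. HY5, a light-signalling factor upstream of the early genes, fell by 0.67 in 2x (edgeR adjusted p = 0.000207) and 0.74 in 4x (edgeR adjusted p = 0.0035). Thus F3H was at 324 to 714 CPM in the 2x shoots numbered 37 to 53, where DFR was at most 2.30 CPM, and at 31.3 to 68.7 CPM in those numbered 90 or above, where DFR was at least 17.5 CPM. CHS and F3'H were not called in either ploidy. The 4x sos3-2 plant with 13.6 CPM of TT19, numbered 45, had 879 CPM of F3H and 1136 CPM of CHS but 0.25 CPM of DFR.

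**Figure D4:**
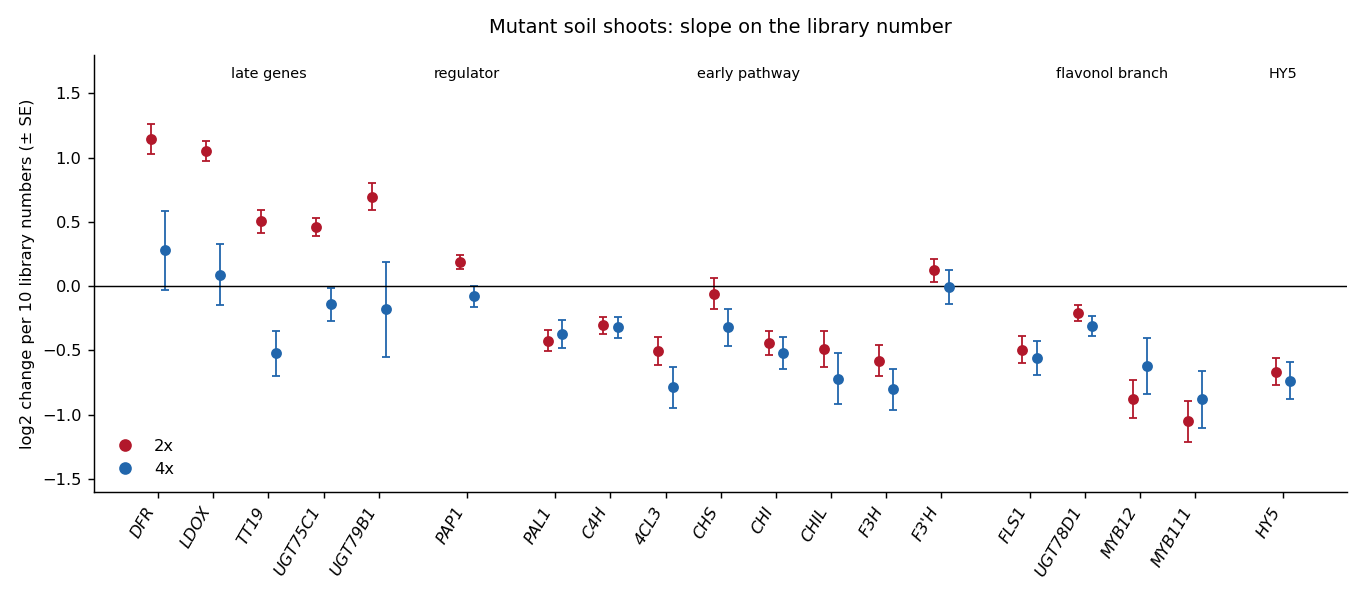
Slope per 10 library numbers (log2, with bars of 1 SE) in 2x and 4x mutant soil shoots for the late anthocyanin genes and for the genes of the other pathway lists. The late genes lie above 0 in 2x, with DFR at 1.14, while most early and flavonol genes lie below 0 in both ploidies.

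Among the partners and brakes of the MYB complex, TTG1, the WD40 protein, had 52.4 to 77.3 CPM in 2x and 56.9 to 100 CPM in 4x mutant shoots and was not called (0.33, SE 0.123, edgeR adjusted p = 0.109). The bHLH genes GL3 and EGL3 were at most at 1.64 CPM. None of 6 repressor genes was called between the ploidies by edgeR, DESeq2 or limma-voom. The 1 with an unadjusted p under 0.05 was LBD39, a nitrate-linked repressor of PAP1 and PAP2 (-0.57, SE 0.192, edgeR adjusted p = 0.0729). Of 5 other decoration genes 1 was called lower, SCPL10, an acyltransferase of the serine carboxypeptidase-like family, which had 25.17 to 55.8 CPM in 2x and 7.27 to 26.7 CPM in 4x and fell by 1.35 (SE 0.201, edgeR adjusted p = 0.000377). Unlike DFR, SCPL10 had no called slope on the library number in either ploidy (0.06 in 2x and -0.09 in 4x). None of 4 genes of the proanthocyanidin branch, which serves the seed coat, passed the filter.

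The members varied together from plant to plant. After each group's mean had been taken out, DFR correlated over 23 mutant shoots with LDOX at r = 0.972 and rho = 0.913 (permutation p = 6e-05 and 0.00017, adjusted p = 0.0003 and 0.00085 over 5 pairs). Its correlation with PAP1 was the weakest of the 5, at r = 0.696 and rho = 0.692 (permutation p = 0.00611 and 0.00451, adjusted p = 0.00611 and 0.00451). Those with TT19, UGT75C1 and UGT79B1 were r = 0.704, 0.786 and 0.882. Without the 2 libraries farthest from the median of DFR the 5 values of r were 0.539 to 0.955. The libraries share the order by library number given above. The genes most like the mean of the enzyme and transport members over 29 grouped shoots were, as a description, the lipase-like TLL1 (r = 0.813), the pyrophosphatase PPa6 (0.804), the amylase BAM5 (0.802), AT5G02940 (0.799) and the vegetative storage protein VSP2 (0.798). PAP1 followed that mean at r = 0.79.

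In roots the late genes were close to the detection limit at both ploidies. In soil roots DFR was at most 0.91 CPM, LDOX 0.41 CPM, TT19 0.66 CPM and PAP1 0.24 CPM, and in plate roots 0.81, 0.66, 3.04 and 0.19 CPM. UGT75C1 was found in every root library, at 0.08 to 1.802 CPM in soil and 0.08 to 2.31 CPM on plates, and UGT79B1 stayed at or below 0.77 CPM. PAP2 had no count in any root and TT8 at most 4. At such counts, of 25 at most for TT19 and 16 or fewer for the others, a difference of ploidy was not detectable rather than absent.

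The members could be tested only because of their shoot values, since in soil roots none of them reached 2 CPM in any library, and they had been chosen on shoots. A test of shoots against roots was therefore fixed in its outcome and is not given. As a description, UGT75C1 lay between 0.20 and 60.6 CPM in mutant shoots of both ploidies and DFR between 0 and 186 CPM.

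No member was called by edgeR for ploidy in roots. In soil roots 0.0934% of all genes were called in Col-0. The shares in the mutants, named in the order sos3-2, esb1-1, rhd6-3/rsl1-1 and chx25-3, were 0.0246%, 0.0737%, 0.0246% and 0.0147%, and the share was 1.53% in the mean over the 5 genotypes, in which DFR, TT19 and PAP1 could not be fitted. In plate roots the shares were 0.0344% in Col-0 and 0%, 0.305%, 0.0541% and 2.8% in the mutants in the same order and 0.55% in the mean, in which PAP1 could not be fitted, as in sos3-2, esb1-1 and rhd6-3/rsl1-1 alone. At an unadjusted p under 0.05 these 12 comparisons held 9 of the 65 fitted member values, and DESeq2 and limma-voom called 0. Among genotypes, soil roots gave no member call at 2x (1.97% of all genes) or 4x (1.3%), with 0 members at an unadjusted p under 0.05 and 0 calls by DESeq2 or limma-voom. In 2x plate roots DFR and TT19 were called (edgeR adjusted p = 0.00879 and 0.0139), where 24% of all genes were. DFR had 0 CPM in the 3 2x chx25-3 libraries and 0.57 and 0.81 CPM in the 2 of sos3-2, a range of 0 to 5 counts a library, and neither call was stable, since between 0 and 1 of the 2 remained when 1 replicate was left out. At 4x no member was called on plates (5.66%), with 1 at an unadjusted p under 0.05 and 0 by DESeq2 or limma-voom.

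**Figure D5:**
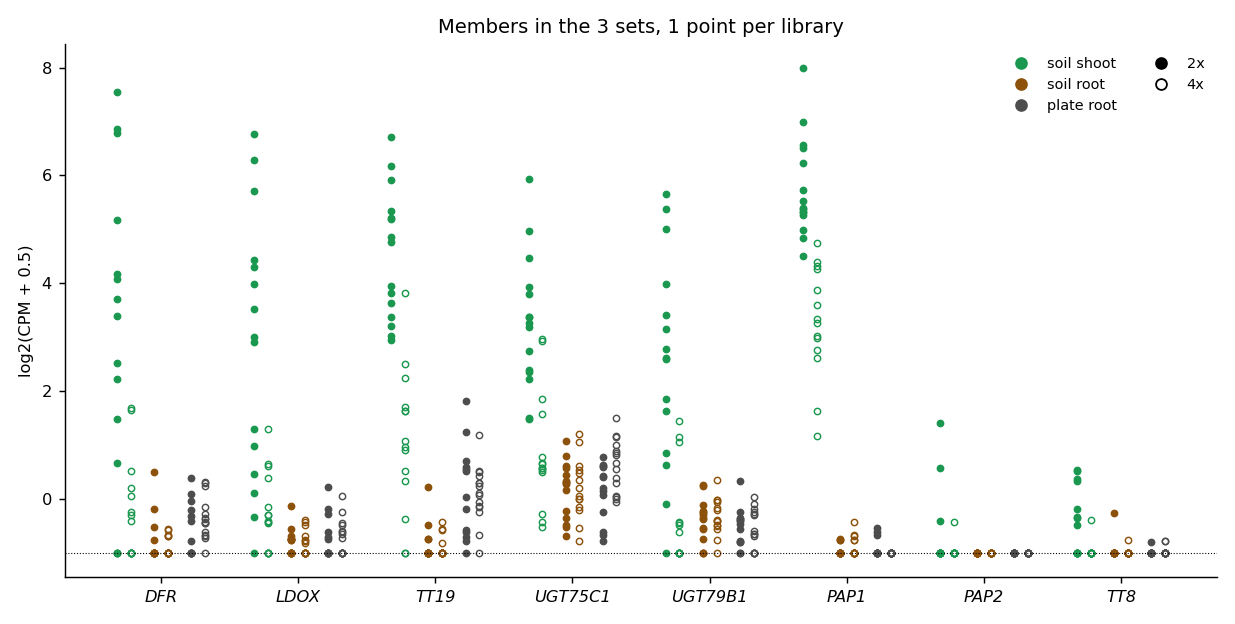
Level of the tested members, as log2(CPM + 0.5), in the libraries of soil shoots, soil roots and plate roots, by ploidy. The highest values are those of 2x soil shoots, with DFR up to 186 CPM, and the highest root value of DFR is 0.91 CPM.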

How the data were processed

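Total RNA of shoots and roots was turned into QuantSeq 3′ mRNA libraries and sequenced single-end by the authors, who quantified 81620 transcripts with Salmon on Galaxy Europe (version, transcript set and genome build not given in the sources used here). The deposited files hold expected counts per transcript, up to 47.2% of whose non-zero values in a library were not whole, and the authors' TPM, which are divided by transcript length and scaled to a fixed total. Expected counts were summed per gene, as the deposited gene table of TPM was checked to be (33681 genes), and rounded. TPM entered only the scaledTPM alternative.

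A gene was kept where 6 or more of the 86 grouped libraries reached 2 CPM (20347 genes) and libraries scaled by TMM. Within each set, an edgeR 4.0.16 quasi-likelihood model (R 4.3.3) with a mean per group was fitted, and p-values were adjusted by Benjamini-Hochberg over all genes. SE is the log2 fold change divided by the root of F. Alternatives were 1 fit of all sets, only the 2 groups compared, RLE scaling, no filter, DESeq2 1.42.0, limma-voom (limma 3.58.1) on scaledTPM, a replicate block, library number as covariate and replicates left out. Scripts were tested on simulated data. The floor is 3 counts, and fold intervals are 95% exact conditional ones for the ratio of 2 count sums, which cover counting error only, since no molecular identifiers were described. Correlations used log2(CPM + 0.5) and two-sided permutation tests with 100000 resamples. Permutations ran within groups for pairs of members and across genotypes for the library number.

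The members and lists were chosen with earlier results of these data known. Named genes are the members, called genes of the other pathway lists (at most 4 a list) and the 5 genes most like the mean of the enzyme members. Other list genes, and library-number slopes, were picked after their values had been seen. Strand use was not stated, so overlapping and antisense genes and close paralogs are uncertain. Soil replicates were separate plants of 1 experiment, and p-values measure the spread between them.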

Additional observations from a re-analysis of the deposited data

Results flagged for a closer look

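In 3 cases a contrast ran one way in shoots and the other way in roots, with no overlap between the ploidies in either set, and the difference between the sets was not tested. In rhd6-3/rsl1-1, TT19 was lower in every 4x than in every 2x shoot but higher in every 4x than in every 2x plate root, at a mean of 0.616 CPM in 4x roots and at most 6 counts a library. UGT75C1 of the same genotype did likewise, at a mean of 1.63 CPM in 4x plate roots and at most 15 counts a library. In chx25-3, PAP1 was lower in every 4x shoot and was listed at 0 in every 2x soil root, against a mean of 0.107 CPM in 4x soil roots, from at most 1 count a library. Of all genes tested, 3.19% in rhd6-3/rsl1-1 and 6.53% in chx25-3 met the same condition in 2 of the 3 sets.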

How the results depend on the processing

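Of the checks of member counts and correlations under other settings, 313 stayed on the same side of the threshold (counts within 1.5 times), 14 were weaker and 9 stronger, and of the checks of single member values 419 stayed, 61 were weaker, 6 stronger and 2 reversed. The 2 were UGT75C1 in esb1-1 shoots, at 0.006 when 4x replicate 2 was left out and 0.16 when 2x replicate 3 was, in a range of -1.35 to 0.16 over the libraries left out. With all grouped libraries in 1 fit, the members called were 1 in sos3-2, 2 in esb1-1, 2 in chx25-3 and 4 among the 2x mutant shoots, each against 0, and 0 among the 2x plate roots against 2. DESeq2 called 1 member in esb1-1, 1 for the 4x slope and 1 for the slope difference, and limma-voom called 2 in rhd6-3/rsl1-1 and 1 for the slope difference. Leaving out 1 library or replicate gave 0 to 5 member calls in rhd6-3/rsl1-1, 0 to 6 in the mean over the mutants, 0 to 1 among the 2x plate roots and 2 to 6 for the 2x slopes. Over all genes, the mean effect in shoots called 1200 genes, 2390 with all grouped libraries in 1 fit, 2045 with the replicate block and 1928 with library number as covariate. In rhd6-3/rsl1-1 the 552 calls became 2753, 2325 and 1304 in that order, and 1198 with DESeq2. The causes were not tested.

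Same-numbered 2x and 4x libraries deviated together with r over 0.1 in 12 of 14 pairs in shoots (r 0.0661 to 0.595). These were all pairs of Col-0, sos3-2 and esb1-1, replicates 1 and 3 of rhd6-3/rsl1-1 and replicate 3 of chx25-3. In soil roots there were 10 of 14 such pairs and on plates 4 of 13. The numbers were taken to pair the shoots of mutants with every pair over 0.1, sos3-2 and esb1-1, and not those of the other mutants. In sos3-2 and esb1-1 the block left the members called at 0. The line is not sharp, since r was 0.125 in replicate 2 of sos3-2 and 0.365 in replicate 3 of chx25-3. The replicate block gave 1 call among the 2x mutant shoots against 0 and 0 for the 2x slopes against 6, and changed no other count of members called. With 2 or 3 plants a group and 4x counts of DFR of at most 13 a group, sizes of single members are imprecise.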

Other observations

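The 2 libraries left out of every group, whose title names the 4x line of chx25-3 and whose genotype label reads sos3-2, were a soil shoot and a soil root. The shoot, with library number 31, had 0.40 CPM of DFR, 0 of LDOX, 1.00 of TT19, 3.62 of UGT75C1, 0.60 of UGT79B1 and 6.43 of PAP1. The root had 0 CPM of DFR, TT19 and PAP1, 0.10 of LDOX and 0.20 of both UGT75C1 and UGT79B1.

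The genes most like the late anthocyanin genes over the 29 grouped shoots also had wide ranges. VSP2, a vegetative storage protein known for its response to jasmonate, had 6.88 to 4314 CPM (median 412) in 15 2x shoots and 3.44 to 289 CPM (median 73.9) in 14 4x shoots. BAM5, a beta-amylase, had 3.61 to 451 CPM (median 173) in 2x and 1.51 to 53.6 CPM (median 15.2) in 4x. TLL1 had medians of 423 and 217 CPM. They were picked for this likeness, so that their ploidy difference is a description.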
